A study of Mus musculus with 16 samples.

Results

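Mttp, Tm6sf2, Sar1b, Lipc, Lcat, Pltp, Scarb1, Abca1 and Lrp1 are 9 genes whose products build lipoproteins in the liver, change them in plasma and take them back up. They were taken by symbol from a table of 41585 rows of liver read counts, and all 9 had a row and passed the filter on low counts, which left 13470 genes. The series asks what human CYP2B6, a drug- and lipid-metabolising P450 enzyme, does in diet-induced obesity. It compares hCYP2B6-Tg mice, which carry the human gene, with Cyp2b-null mice, in both sexes, with 4 liver libraries in each of the 4 groups. All animals were C57BL/6 mice that had eaten a diet with 60% fat for 16 weeks, so no group on another diet stands beside them. The labels do not give their age, which Cyp2b genes the null animals lack, whether the hCYP2B6-Tg animals lack them too, or the promoter of the transgene. Libraries are named by sex, genotype and the number in their title, and since nothing says that each came from a separate animal, p-values measure the spread between libraries, which may be technical.

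The liver packs triglyceride and cholesterol around apolipoprotein B in the endoplasmic reticulum and sends the particles out as VLDL in large COPII-coated carriers. In plasma, lipases, an acyltransferase and transfer proteins change the particles and mature HDL, and the liver then clears remnants and HDL cholesterol through receptors. Abca1 works in the other direction and loads cholesterol and phospholipid onto apolipoprotein A-I to start new HDL. In mouse liver many genes of lipid transport differ between the sexes, in large part through the sex-specific pattern of growth hormone release and through oestrogen.

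The 16 libraries held 5584587 to 9672708 counts, and a count of 0 allowed up to 0.310 to 0.537 CPM (counts scaled to a common library size with TMM factors) if 3 counts are taken as the limit, which covers counting error only. The members lay far above that limit, with 133 to 521 counts per library for Tm6sf2, the least counted, and 4795 to 8811 for Lrp1. Cyp2b10, Cyp2b19 and Cyp2b23 together had 6 to 50 counts in each hCYP2B6-Tg library and 0 or 1 in each Cyp2b-null library, and reads of the human gene cannot be told apart from those of the mouse genes here. All 16 libraries matched their labelled sex. Summed hepatocyte markers were 105512 to 124778 CPM in hCYP2B6-Tg females, 107706 to 130263 in Cyp2b-null females, 103248 to 108506 in hCYP2B6-Tg males and 96287 to 101712 in Cyp2b-null males, and the Cyp2b-null sexes did not overlap. Alb made up most of each sum, at 88901 to 111125 CPM in Cyp2b-null females and 77688 to 83388 in Cyp2b-null males. Of the 8 markers 1, Ttr, was lower in females among hCYP2B6-Tg livers (-0.33), and 1, Alb, was higher in females among Cyp2b-null livers (0.34). The part of these markers in the sex differences of the members was not tested. Of 8 Kupffer cell (liver macrophage) markers, 1, Vsig4, was higher in females among hCYP2B6-Tg livers, and 4, Vsig4, Clec4f, C1qa and Csf1r, were higher among Cyp2b-null livers. Their sum was 458 to 615 CPM in hCYP2B6-Tg females, 434 to 742 in Cyp2b-null females, 359 to 435 in hCYP2B6-Tg males and 311 to 478 in Cyp2b-null males. Summed stellate cell markers were 430.0 to 480 CPM in hCYP2B6-Tg females, 434 to 505 in Cyp2b-null females, 360 to 402 in hCYP2B6-Tg males and 337 to 417 in Cyp2b-null males, with 1 of 8, Ecm1, higher in females of each genotype. Of 2 tested adipocyte markers, 1, Cfd, was lower in females of both genotypes, and adipocyte sums stayed at or under 46.3 CPM. Of 7 pancreatic acinar markers 3 were at 0 in all libraries and 1, Cela1, was lower in Cyp2b-null females, with sums at or under 54.5 CPM. Cyp2b-null male 4 stood apart, with 22.9 CPM of the acinar Ctrb1 and 38.9 CPM of the bile duct keratin Krt19, against at most 0.104 and 1.61 CPM in the other libraries, and no member's call changed when it was left out. No endothelial, cholangiocyte or red blood cell marker passed in any contrast. In bulk liver, fewer cells of a type and less RNA per cell cannot be told apart.

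The promoters printed here belong to members whose sex difference or regulation is described in the results. They are the stretches before the annotated start that no exon covers, from RefSeq on GRCm38.p6, read 5′ to 3′ on the gene's strand, which is the reverse strand in each. Of the 9 members, 7 had a promoter entry. Lipc has an upstream and an internal start, at chr9:70952227-70952471 and chr9:70934809-70935058, and counts per gene do not separate them. The other stretches lie at chr8:105943403-105943589 (Lcat), chr4:53159896-53160145 (Abca1) and chr10:127621149-127621398 (Lrp1). Capitals mark motif matches, and a sequence without capitals held no match.
Lipc, upstream start: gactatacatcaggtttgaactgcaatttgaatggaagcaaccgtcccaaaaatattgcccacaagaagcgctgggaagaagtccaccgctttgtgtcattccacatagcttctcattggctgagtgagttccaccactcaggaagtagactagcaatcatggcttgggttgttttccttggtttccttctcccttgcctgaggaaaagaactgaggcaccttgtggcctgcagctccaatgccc
Lipc, internal start: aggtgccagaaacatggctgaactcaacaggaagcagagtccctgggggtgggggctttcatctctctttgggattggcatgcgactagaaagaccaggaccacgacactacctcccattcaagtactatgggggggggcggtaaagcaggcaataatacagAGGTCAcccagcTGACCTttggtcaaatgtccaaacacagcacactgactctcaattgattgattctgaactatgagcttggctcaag
Lcat: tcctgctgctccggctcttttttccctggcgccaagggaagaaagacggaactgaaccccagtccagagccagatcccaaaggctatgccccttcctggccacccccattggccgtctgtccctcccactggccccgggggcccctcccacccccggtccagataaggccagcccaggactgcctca
Abca1: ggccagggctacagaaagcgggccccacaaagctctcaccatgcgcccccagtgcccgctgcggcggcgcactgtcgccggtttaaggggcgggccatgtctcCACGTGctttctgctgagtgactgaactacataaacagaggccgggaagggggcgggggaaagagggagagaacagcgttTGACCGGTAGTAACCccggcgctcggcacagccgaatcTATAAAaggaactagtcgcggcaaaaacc
Lrp1: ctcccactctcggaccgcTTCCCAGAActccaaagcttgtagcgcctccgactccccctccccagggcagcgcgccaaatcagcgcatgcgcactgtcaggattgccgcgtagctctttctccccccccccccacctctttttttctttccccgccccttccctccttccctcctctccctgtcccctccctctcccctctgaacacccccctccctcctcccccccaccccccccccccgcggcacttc

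The motifs were searched on both strands in the 250 bases before the start. The STAT palindrome TTCNNNGAA, which STAT5 binds below the growth hormone receptor, occurred once among the 7 members searched, which leave out Tm6sf2 and Scarb1, in Lrp1, 232 to 224 bases before the start, and in 7.02% of 32851 promoters. The nuclear receptor half-site AGGTCA occurred once on each strand before the internal start of Lipc, and in 14% of all promoters. Abca1, a classic target of the sterol-sensing receptor LXR, held an E-box (CACGTG, in 6.02% of all promoters) and TATAAA (in 12.4%). The strict LXR repeat, DR4, which is AGGTCA followed after 4 bases by AGGTCA and so contains the half-site, was in 0.0152% of all promoters and in none of the members searched. A relaxed form, GGTNA followed after 5 bases by GGTCA, was in 0.177% of all promoters and lay 67 to 53 bases before the start of Abca1, on the other strand. No plan fixed the letters of the relaxed form beforehand, so this match and its share describe the sequence and test nothing. GTTAAT, the half-site of the liver factor HNF1, was in 6.43% of all promoters and in none of these. A match is a run of letters and not a measured binding site.

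Per kilobase of the longest transcript, Lcat had the highest level in every group, with 324 ± 24.4 CPM per kb in hCYP2B6-Tg females, 301 ± 23.3 in Cyp2b-null females, 241 ± 18.9 in hCYP2B6-Tg males and 247 ± 29.3 in Cyp2b-null males (mean ± SD, n = 4 in this and every later group). Sar1b was second in every group, at 166 ± 21.1 CPM per kb in hCYP2B6-Tg females, 171 ± 14.9 in Cyp2b-null females, 221 ± 7.46 in hCYP2B6-Tg males and 192 ± 9.25 in Cyp2b-null males. In females Lipc came next by mean, with libraries that overlapped those of Sar1b in both genotypes, and then Mttp. In males the libraries of Lipc and Mttp overlapped. Lrp1, Pltp and Scarb1 formed a middle group, with group means of 42.1 to 63.2 CPM per kb and overlapping libraries. Abca1 was at the bottom in females, with 18.1 ± 1.78 CPM per kb in hCYP2B6-Tg and 18.9 ± 2.20 in Cyp2b-null females. In males Tm6sf2 was below it, at 17.1 ± 1.25 CPM per kb in hCYP2B6-Tg and 18.1 ± 4.83 in Cyp2b-null livers, though its libraries overlapped those of Abca1 in Cyp2b-null males and its highest hCYP2B6-Tg library, at 18.7, lay just under the lowest of Abca1, at 18.8. The place of Scarb1 depends on the length used, since its longest transcript has 3093 bases and all its exons together 8500, and over the latter it was eighth in every group.

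**Figure D1:**
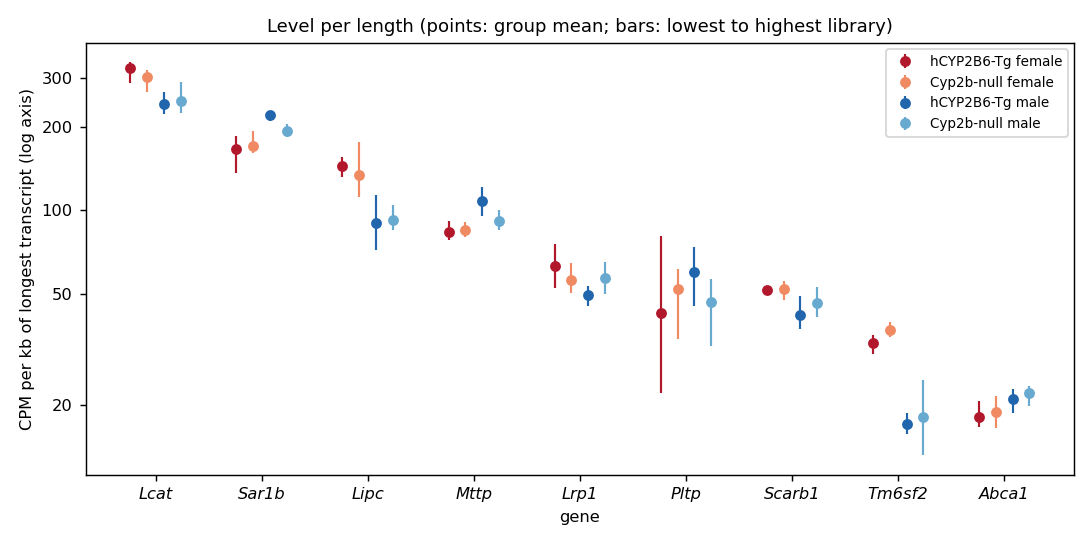
Levels of the 9 genes as CPM per kilobase of the longest transcript, on a log axis; points are means of 4 libraries and bars run from the lowest to the highest library, by group. Lcat and Sar1b stand highest, and Tm6sf2 and Abca1 trade the lowest place between females and males.

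No member passed the threshold for genotype. With edgeR's quasi-likelihood test and Benjamini-Hochberg adjustment over all 13470 genes, 0 of 9 members passed in females, where 0 genes in all did (0% of those tested, and 1022, or 7.59%, at an unadjusted p under 0.05). In males 0 of 9 members passed, against 0.111% of all genes, and averaged over the sexes 0 of 9, against 0.0148%. The smallest adjusted p of a member was 0.762 in females, 0.498 in males and 0.758 in the average. At an unadjusted p under 0.05 there were 0 members in females (7.59% of all genes), 2 in males (7.17%) and 0 in the average (6.94%), and DESeq2 and limma voom also called 0 members in each. Estimates ran from -0.29 for Pltp to 0.17 for Lrp1 in females and from -0.21 for Lrp1 to 0.37 for Pltp in males. The members' median log2 fold change was -0.020 in females, beside 0.0016 over all genes, and -0.046 in males, beside -0.0043. The libraries of the genotypes did not overlap for 0 of 9 members in females, against 3.5% of all genes, and for 1 of 9 in males, Sar1b, against 4.77%.

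Most members differed between the sexes in hCYP2B6-Tg livers, and fewer passed in Cyp2b-null livers. Among hCYP2B6-Tg livers 7 of 9 members differed, against 10.3% of all genes: Tm6sf2, Lipc, Lcat, Scarb1 and Lrp1 were higher in females (4.69% of all genes), and Mttp and Sar1b were lower (5.56%). Libraries of females and males did not overlap for 6 of these, all but Lrp1, against 15.6% of all genes. Among Cyp2b-null livers 2 of 9 differed, Tm6sf2 and Lipc, both higher in females (3.57% of all genes) and 0 lower (3.95%), against 7.52% of all genes in either direction, and their libraries did not overlap, as for 12.3% of all genes. The difference between the sex effects, which is the same test as the difference between the genotype effects, passed for 0 of 9 members, against 0.0445% of all genes, with a smallest adjusted p of 0.577 (2 at an unadjusted p under 0.05, against 7.7% of all genes, and 0 with DESeq2 or limma voom). So 7 in one genotype and 2 in the other does not show that sex acts differently in them.

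**Figure D2:**
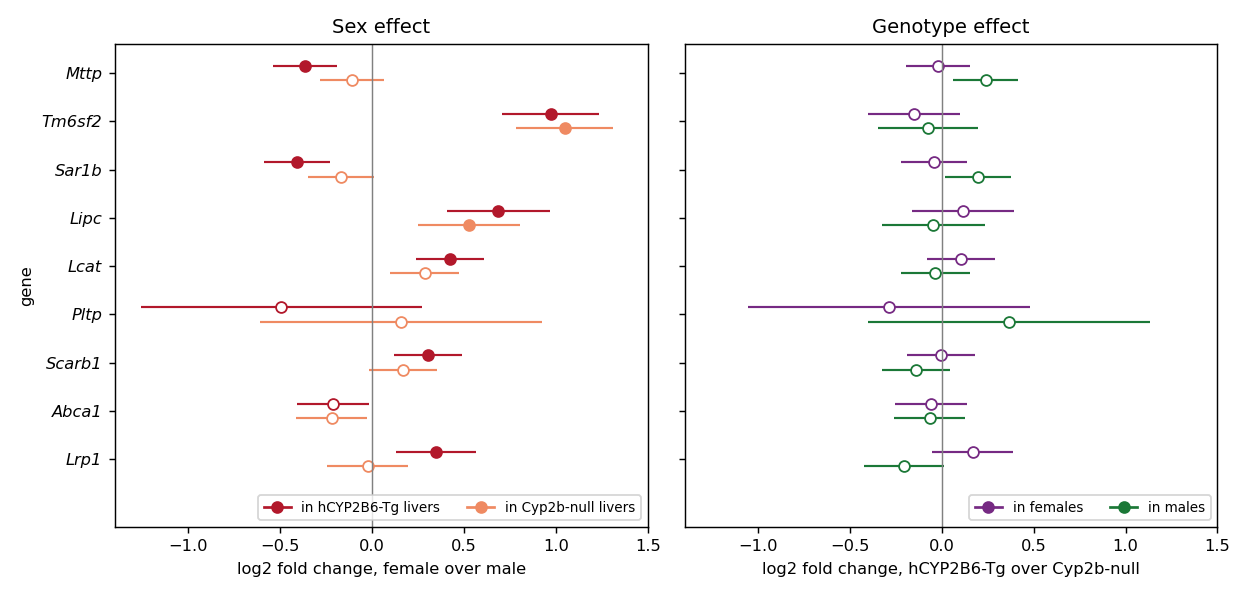
Log2 fold changes of the 9 genes with 95% confidence intervals, for females over males in each genotype (left) and for hCYP2B6-Tg over Cyp2b-null in each sex (right); filled points passed an adjusted p of 0.05. Sex effects pass for 7 genes in hCYP2B6-Tg and 2 in Cyp2b-null livers, and no genotype effect passes.

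Of the genes of assembly, Tm6sf2 had the largest fold difference between the sexes among the members, and Mttp and Sar1b were lower in females among hCYP2B6-Tg livers and did not pass among Cyp2b-null livers. Tm6sf2 (chr8:70072924-70080066 on GRCm38) encodes a membrane protein of the endoplasmic reticulum that is needed to load VLDL with lipid. In hCYP2B6-Tg livers Tm6sf2 had 47.9, 51.7, 44.1 and 50.04 CPM in females, against 27.0, 22.8, 25.1 and 24.0 CPM in males. In Cyp2b-null livers Tm6sf2 had 52.7, 57.4, 50.9 and 54.3 CPM in females, against 35.8, 23.9, 26.0 and 19.1 CPM in males. Every female library lay above every male one, and the Cyp2b-null males were the most spread. Tm6sf2 was 1.96-fold higher in females among hCYP2B6-Tg livers (log2 fold change 0.97 ± 0.13 SE, edgeR adjusted p = 9.7e-06) and 2.07-fold higher among Cyp2b-null livers (1.05 ± 0.13, adjusted p = 3.11e-06). Its genotype estimate was -0.15 in females (95% confidence interval -0.40 to 0.10) and -0.074 in males (-0.35 to 0.20).

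Mttp (chr3:138089855-138143418) encodes the transfer protein that moves triglyceride onto apolipoprotein B as it is made. In hCYP2B6-Tg livers Mttp had 365, 342, 310.2 and 312 CPM in females, against 378, 444, 411 and 482 CPM in males. In Cyp2b-null livers Mttp had 359.8, 317, 334 and 338 CPM in females, against 399, 359.6, 359 and 336 CPM in males. All hCYP2B6-Tg males lay above all females of that genotype, while the Cyp2b-null sexes overlapped. Mttp was lower in females among hCYP2B6-Tg livers (-0.37 ± 0.08, edgeR adjusted p = 0.00564), and its estimate among Cyp2b-null livers was -0.11 ± 0.08 (adjusted p = 0.526). In males it averaged 429 ± 44.5 CPM in hCYP2B6-Tg and 364 ± 26.3 in Cyp2b-null livers. Of the members it had the smallest genotype p there (log2 fold change 0.24 ± 0.08 SE, edgeR unadjusted p = 0.00973 and adjusted p = 0.498). Exons of Gm43691 and Trmt10a on the other strand cover 9.49% of its exon bases, and no source used here states whether the counting took account of strand.

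Sar1b (chr11:51763663-51791953) encodes the small GTPase that starts the COPII coat for large lipoprotein cargo. In hCYP2B6-Tg livers Sar1b had 222, 202, 210.4 and 164 CPM in females, against 270.4, 252, 267 and 271 CPM in males. In Cyp2b-null livers Sar1b had 195, 203, 193 and 231 CPM in females, against 220.1, 233, 225 and 246 CPM in males. The hCYP2B6-Tg males were the highest group, and all 4 lay above the libraries of each other group. Sar1b was lower in females among hCYP2B6-Tg livers (-0.41 ± 0.09, edgeR adjusted p = 0.00288), with an estimate of -0.17 ± 0.09 among Cyp2b-null livers (adjusted p = 0.286). In males its genotype estimate was 0.20 ± 0.09 (unadjusted p = 0.0334, adjusted p = 0.642). No stretch of 50 bases of its longest transcript occurs in another gene, its close relative Sar1a included, and Sar1a had 90.1 ± 5.02 CPM in hCYP2B6-Tg females against 92.7 ± 5.05 in hCYP2B6-Tg males.

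**Figure D3:**
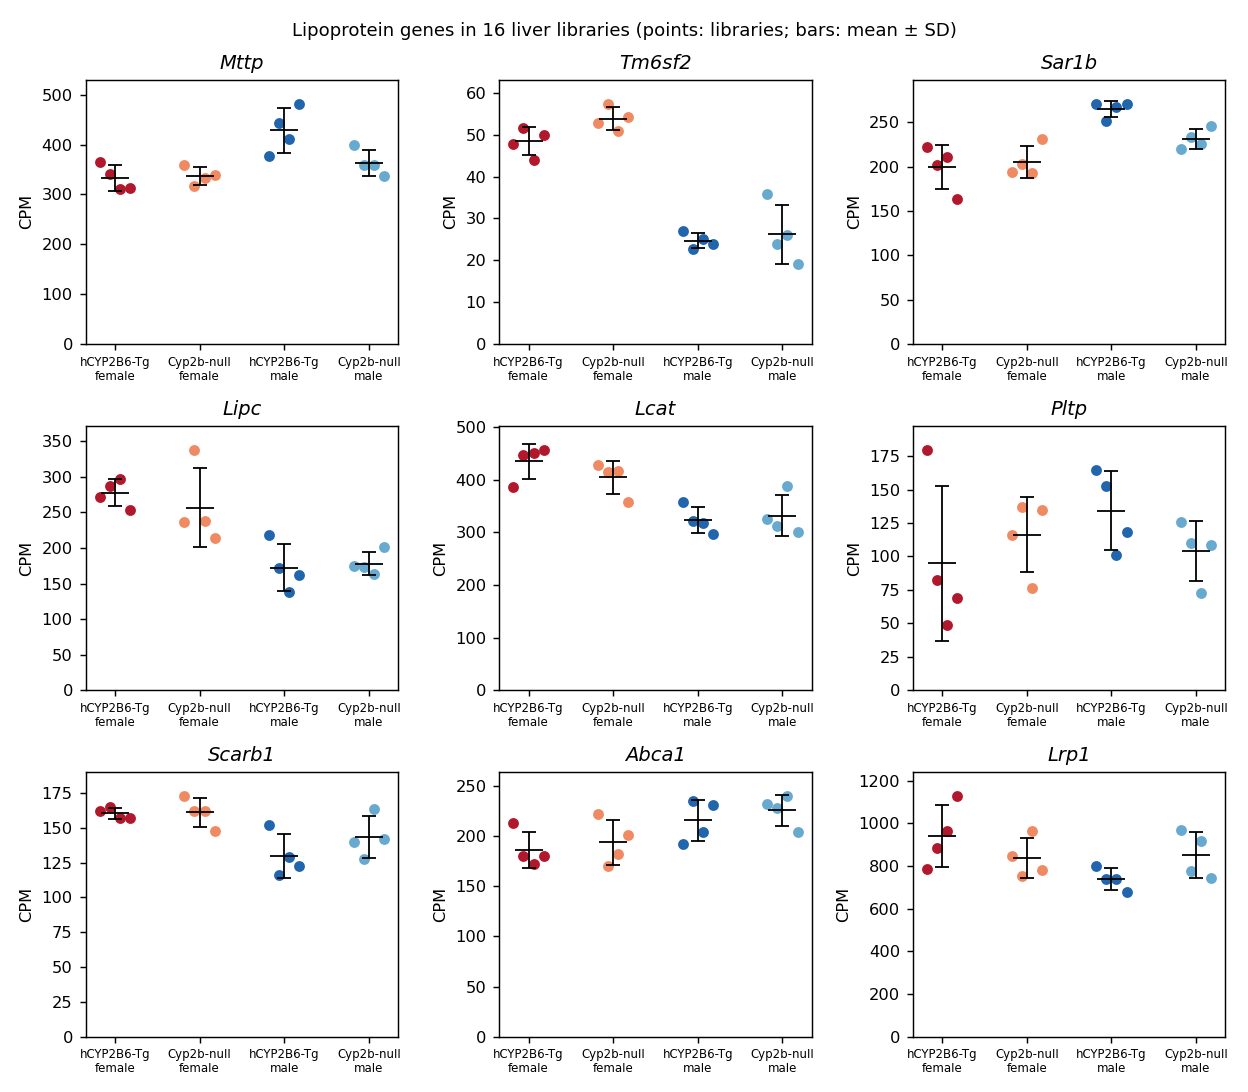
CPM of each gene in each of the 16 libraries, as points, with the mean and SD of each group of 4, from hCYP2B6-Tg females on the left to Cyp2b-null males on the right. Tm6sf2 separates the sexes in both genotypes, Sar1b is highest in hCYP2B6-Tg males, and 1 hCYP2B6-Tg female library stands high for Pltp at 179.5 CPM.

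Of the genes that act on particles in plasma, the lipase was higher in females of both genotypes, the acyltransferase was higher in females among hCYP2B6-Tg livers, and the gene of the transfer protein did not pass in either genotype. Lipc (chr9:70798128-70952221) encodes hepatic lipase, which hydrolyses triglyceride and phospholipid of HDL and remnants. In hCYP2B6-Tg livers Lipc had 272, 287, 297 and 254 CPM in females, against 218, 171, 139 and 163 CPM in males. In Cyp2b-null livers Lipc had 237, 338, 238 and 214 CPM in females, against 174, 173, 164 and 201 CPM in males. The sexes did not overlap in either genotype, and 1 Cyp2b-null female, number 3, stood well above the others. Lipc was 1.61-fold higher in females among hCYP2B6-Tg livers (0.69 ± 0.13, edgeR adjusted p = 0.00195) and 1.44-fold higher among Cyp2b-null livers (0.53 ± 0.13, adjusted p = 0.0174). The second of these was lost without Cyp2b-null female 3 (0.37, adjusted p = 0.0520) or Cyp2b-null male 3 (0.49, adjusted p = 0.0651).

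Lcat (chr8:105939551-105943402) encodes the enzyme that esterifies cholesterol on HDL. In hCYP2B6-Tg livers Lcat had 386, 447, 450.3 and 457 CPM in females, against 358, 322, 317 and 297 CPM in males. In Cyp2b-null livers Lcat had 428, 415, 417 and 358 CPM in females, against 325, 313, 389 and 300.3 CPM in males. The hCYP2B6-Tg sexes did not overlap, while 1 library of each sex crossed over among Cyp2b-null livers. Lcat was 1.34-fold higher in females among hCYP2B6-Tg livers (0.43 ± 0.09, edgeR adjusted p = 0.00262), and among Cyp2b-null livers the estimate was 0.29 ± 0.09 with an adjusted p of 0.0543. That estimate passed without hCYP2B6-Tg female 1 (0.0446), Cyp2b-null female 5 (0.0274), hCYP2B6-Tg male 2 (0.0497) or Cyp2b-null male 3 (0.0117).

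Pltp (chr2:164839518-164857708) encodes the phospholipid transfer protein, which moves phospholipid from triglyceride-rich particles to HDL. In hCYP2B6-Tg livers Pltp had 179.5, 82.2, 49.1 and 69.2 CPM in females, against 165, 153, 101 and 118 CPM in males. In Cyp2b-null livers Pltp had 116, 137, 76.8 and 135 CPM in females, against 126, 109.8, 72.8 and 108 CPM in males. All 4 groups overlapped, and hCYP2B6-Tg female 1 was the highest library of the 16. Pltp had the widest spread of the members, with a residual SD of 0.50 on the log2 scale, wider than in 88.0% of all genes. The other members had 0.11 to 0.21, against a median of 0.24 over all genes. Its sex estimate was -0.50 ± 0.35 among hCYP2B6-Tg livers (edgeR adjusted p = 0.445) and 0.16 ± 0.35 among Cyp2b-null livers (adjusted p = 0.863). Without hCYP2B6-Tg female 1 the estimate among hCYP2B6-Tg livers was -1.001 and passed (adjusted p = 0.0323). Exons of Ctsa, a lysosomal protease gene on the other strand, cover 19.3% of the exon bases of Pltp, and Ctsa itself had group means of 153 to 165 CPM.

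Of the receptors and transporters, Scarb1 and Lrp1 were higher in females among hCYP2B6-Tg livers by a small margin, and Abca1 did not pass in either genotype. Scarb1 (chr5:125277087-125341094) encodes SR-BI, the receptor that takes cholesteryl ester from HDL without taking up the particle. In hCYP2B6-Tg livers Scarb1 had 162, 165, 157 and 157 CPM in females, against 152, 116, 129 and 123 CPM in males. In Cyp2b-null livers Scarb1 had 173, 162, 162 and 148 CPM in females, against 140.1, 128, 164 and 142 CPM in males. The hCYP2B6-Tg females were the most even group of any member, with a coefficient of variation of 2.495%, and lay just above the males of that genotype. Scarb1 was 1.23-fold higher in females among hCYP2B6-Tg livers (0.30 ± 0.09, edgeR adjusted p = 0.0300), against an estimate of 0.17 ± 0.09 among Cyp2b-null livers (adjusted p = 0.307). The call was lost without hCYP2B6-Tg female 1, 2, 4 or 5 or hCYP2B6-Tg male 3, 4 or 5 (adjusted p 0.0504 to 0.118).

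Lrp1 (chr10:127538157-127621148) encodes the large receptor that clears remnants and binds many other ligands, and it is the member whose promoter held the STAT palindrome. In hCYP2B6-Tg livers Lrp1 had 788, 884, 963 and 1128 CPM in females, against 799, 738, 741 and 677 CPM in males. In Cyp2b-null livers Lrp1 had 849, 755, 963 and 783 CPM in females, against 969, 777, 919.5 and 745 CPM in males. Among hCYP2B6-Tg livers only the lowest female and the highest male crossed over, and the Cyp2b-null sexes covered about the same range. Lrp1 was 1.27-fold higher in females among hCYP2B6-Tg livers (0.35 ± 0.11, edgeR adjusted p = 0.0366), against an estimate of -0.025 ± 0.11 among Cyp2b-null livers (adjusted p = 0.930). It had the smallest p of the members for the difference between these effects, 0.37 ± 0.15 (unadjusted p = 0.0203, adjusted p = 0.577). The call among hCYP2B6-Tg livers was lost without hCYP2B6-Tg female 4 or 5 or hCYP2B6-Tg male 3, 4 or 5 (adjusted p 0.0708 to 0.170).

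Abca1 (chr4:53030789-53159988), the exporter that starts HDL and the member whose promoter held the relaxed LXR repeat, had 213, 179.8, 172 and 179.9 CPM in females and 192, 235, 205 and 231 CPM in males among hCYP2B6-Tg livers. Among Cyp2b-null livers Abca1 had 222, 171, 182 and 202 CPM in females, against 232, 228, 240.0 and 204 CPM in males. The sexes overlapped in both genotypes, with females lower on average. Its sex estimate was -0.21 ± 0.09 among hCYP2B6-Tg livers (95% confidence interval -0.41 to -0.019, edgeR adjusted p = 0.166) and -0.22 ± 0.09 among Cyp2b-null livers (-0.41 to -0.027, adjusted p = 0.176). Kupffer cells also express Abca1 and Lrp1. The Kupffer cell markers given above were higher in females where they moved, and their part in these values was not tested.

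The other genes of the pathway, 139 from 7 lists, of which 130 were tested, passed with edgeR for sex in part and for genotype not at all. For genotype 0 of 130 passed with edgeR in females, in males, on average and in the difference, while 11 (8.46%) had an unadjusted p under 0.05 in females, against 7.59% of all genes. In males it was 19 (14.6%, against 7.17%), on average 11 (8.46%, against 6.94%) and in the difference 17 (13.1%, against 7.7%). With limma voom 0 passed in each, against 0% of all genes in females, 0.0445% in males, 0% on average and 0.0223% in the difference. With DESeq2 0 passed in females (0.0891% of all genes) and in the difference (0.119%). In males 3 passed with it, 2.46% of those with an adjusted p, against 0.536% of the 8769 genes with one. On average 2 passed, 1.69% of those with an adjusted p, against 0.388% of the 7986 genes with one. Those named here were chosen after their values were seen. In males they included Nr0b2, the repressor SHP (-1.22, DESeq2 adjusted p = 0.000265, edgeR 0.180), and Apoa4 (0.67, DESeq2 0.0495, edgeR 0.426). On average they were Nr0b2 (-0.69, DESeq2 0.0176, edgeR 0.422) and Cebpb (0.40, DESeq2 0.0341, edgeR 0.203). For sex 28 passed among hCYP2B6-Tg livers, 21.5% of those tested against 10.3% of all genes, with 12 higher and 16 lower in females. Among Cyp2b-null livers 18 passed, 13.8% against 7.52% of all genes, with 10 higher and 8 lower. The lists were drawn up with earlier results known, so these shares describe them and test nothing. The median log2 fold change of the 130 was -0.012 among hCYP2B6-Tg livers, beside 0.016 over all genes, and 0.0069 among Cyp2b-null livers, beside 0.0046.

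Of 28 tested genes of assembly and export, none passed as higher in females, while 7 passed as lower among hCYP2B6-Tg livers and 4 among Cyp2b-null livers. In each genotype 8 of the 28 had a positive estimate. Here and for the lists below, counts are of genes past the threshold. Of all genes, 4.69% passed as higher and 5.56% as lower in females among hCYP2B6-Tg livers. The shares among Cyp2b-null livers were 3.57% and 3.95%. The list's median was -0.092 among hCYP2B6-Tg livers and -0.10 among Cyp2b-null livers. Cidec, which fuses lipid droplets, had 1.85 ± 0.685 CPM in hCYP2B6-Tg females against 16.8 ± 8.46 in hCYP2B6-Tg males (-3.15 ± 0.35, edgeR adjusted p = 5.94e-06), and 2.29 ± 0.131 in Cyp2b-null females against 9.84 ± 1.64 in Cyp2b-null males (-2.10 ± 0.37, adjusted p = 0.000965). Mia2, a receptor for bulky cargo at endoplasmic reticulum exit sites, was lower in females by a log2 fold change of -0.54 among hCYP2B6-Tg livers (adjusted p = 0.000212) and -0.39 among Cyp2b-null livers (0.00678, and 0.0593 without Cyp2b-null females 1 and 3 and hCYP2B6-Tg male 4). Vmp1, a lipid scramblase needed to release lipoproteins into the lumen, was lower among hCYP2B6-Tg livers (-0.45, adjusted p = 0.00520). Sort1, a sorting receptor that binds apolipoprotein B, had 7.44 ± 1.498 CPM in Cyp2b-null females against 18.3 ± 3.21 in Cyp2b-null males (-1.29 ± 0.23, adjusted p = 0.000581). Chosen after their values were seen because they form the COPII coat with Sar1b, Sec23a (-0.33), Sec24a (-0.34) and Sec13 (-0.35) were also lower in females among hCYP2B6-Tg livers (adjusted p 0.00628 to 0.0200). The list's other coat genes did not pass there, with estimates of 0.43 for Sec23b, 0.18 for Sec31a, 0.15 for Sec24b, -0.022 for Sec24c and -0.12 for Sec24d (adjusted p 0.293 to 0.932). The Sec13 call was lost without hCYP2B6-Tg female 2 or 4 or hCYP2B6-Tg male 3 or 5 (adjusted p up to 0.105). Among Cyp2b-null livers Sec13 was the 1 coat gene that passed (-0.36, adjusted p = 0.0199, lost without Cyp2b-null female 3 or 4 or Cyp2b-null male 1 or 3, up to 0.0840). Apob, the protein core of VLDL, did not pass, with -0.21 among hCYP2B6-Tg livers (adjusted p = 0.121) and -0.22 among Cyp2b-null livers (0.122).

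Of 19 tested genes of HDL and plasma remodelling, 3 were higher and 2 lower in females among hCYP2B6-Tg livers, and 4 were higher among Cyp2b-null livers. Apom, the HDL protein that carries sphingosine 1-phosphate, had 55.6 ± 3.46 CPM in hCYP2B6-Tg females against 33.2 ± 7.80 in hCYP2B6-Tg males (0.74 ± 0.16, edgeR adjusted p = 0.00402). Among Cyp2b-null livers Apom was higher by 0.60 (adjusted p = 0.0220), a call lost without Cyp2b-null female 3 or 5 or Cyp2b-null male 1 (up to 0.0740). Pon1, an antioxidant lactonase bound to HDL, was higher in females by 0.39 among hCYP2B6-Tg livers (adjusted p = 0.00278) and by 0.32 among Cyp2b-null livers (0.0178, lost without Cyp2b-null female 3 or Cyp2b-null male 3, up to 0.0844). Pcyox1, a lipoprotein-bound oxidase, was lower among hCYP2B6-Tg livers (-0.39, adjusted p = 0.00134), and Apoc3, an inhibitor of lipolysis, was higher in females among Cyp2b-null livers (0.35, adjusted p = 0.00380). Of 13 genes that control lipases, 1 passed, Pcsk5, a protease of the proprotein convertase family. It had 19.2 ± 0.443 CPM in hCYP2B6-Tg females against 10.7 ± 0.600 in hCYP2B6-Tg males (0.84 ± 0.13, adjusted p = 9.01e-05) and 0.97 ± 0.13 as its log2 fold change among Cyp2b-null livers (adjusted p = 1.77e-05).

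Of 25 tested receptor and uptake genes, 4 were higher and 1 lower in females among hCYP2B6-Tg livers, and 2 were higher among Cyp2b-null livers. Vldlr, the VLDL receptor, had 30.4 ± 9.18 CPM in hCYP2B6-Tg females against 7.32 ± 2.57 in hCYP2B6-Tg males, and 33.1 ± 1.95 in Cyp2b-null females against 9.61 ± 2.71 in Cyp2b-null males. Its log2 fold change was 2.04 ± 0.24 among hCYP2B6-Tg livers (edgeR adjusted p = 1.08e-05) and 1.80 ± 0.23 among Cyp2b-null livers (3.65e-05). Sdc1, a heparan sulphate proteoglycan that binds remnants, was higher by 0.51 among hCYP2B6-Tg livers (adjusted p = 0.00228) and 0.69 among Cyp2b-null livers (9.09e-05). Lsr, the lipolysis-stimulated lipoprotein receptor, was higher by 0.37 among hCYP2B6-Tg livers (adjusted p = 0.0358, lost without hCYP2B6-Tg female 2 or 5 or hCYP2B6-Tg male 3 or 4, up to 0.139). To complete the count there, Lrp5 was higher (0.35, adjusted p = 0.0490) and Scarb2 lower (-0.27, adjusted p = 0.0370). Over 16 omissions of a single library, the Lrp5 call held in 2 and the Scarb2 call in 10.

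**Figure D4:**
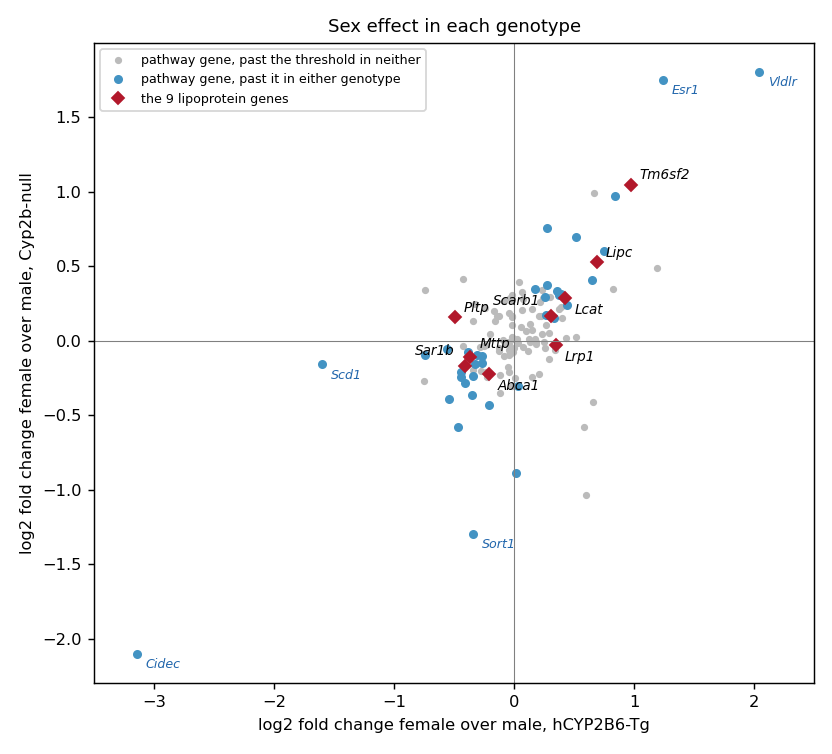
Log2 fold changes of females over males among hCYP2B6-Tg livers (x axis) and Cyp2b-null livers (y axis) for 130 pathway genes and the 9 members. The axes share no library; Vldlr (2.04 and 1.80), Esr1 (1.24 and 1.75) and Cidec (-3.15 and -2.10) lie farthest out, and Tm6sf2 lies in the upper right with 0.97 and 1.05.

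The LXR list held target genes of LXR and also genes of the receptor and its partner. Of its 15 tested genes other than the members, 1 was higher and 2 lower in females among hCYP2B6-Tg livers. In Cyp2b-null livers 1 was lower, the partner Rxra. Among hCYP2B6-Tg livers Lpcat3, a phospholipid-remodelling enzyme, was lower (-0.56, edgeR adjusted p = 0.00219). Scd1, a fatty acid desaturase, was lower there too (-1.60, adjusted p = 0.0281, lost without hCYP2B6-Tg female 5 or hCYP2B6-Tg male 3 or 5, up to 0.0811). Nr1h3, which encodes LXR alpha itself, was higher (0.26, adjusted p = 0.0272, lost without hCYP2B6-Tg female 4 or 5 or hCYP2B6-Tg male 3 or 4, up to 0.114). Rxra, its partner, was lower in females among Cyp2b-null livers (-0.30, adjusted p = 0.0209, lost without Cyp2b-null female 1, 3 or 5 or Cyp2b-null male 2 or 3, up to 0.107).

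Of 17 tested transcription factors, 2 were higher and 2 lower in females among hCYP2B6-Tg livers, and 3 were higher and 2 lower among Cyp2b-null livers. Esr1, oestrogen receptor alpha, had 36.1 ± 6.94 CPM in hCYP2B6-Tg females against 15.4 ± 2.99 in hCYP2B6-Tg males (1.24 ± 0.17, edgeR adjusted p = 2.49e-05), and 42.2 ± 3.51 in Cyp2b-null females against 12.6 ± 3.44 in Cyp2b-null males (1.75 ± 0.17, adjusted p = 2.96e-07). Among hCYP2B6-Tg livers Srebf2, the sterol-responsive factor, was higher in females (0.33, adjusted p = 0.00854), and Ppara, the fatty acid receptor, was lower (-0.41, adjusted p = 0.00989). Among Cyp2b-null livers Nr1h4, the bile acid receptor FXR, was lower in females (-0.43, adjusted p = 0.00655), as was Cebpb (-0.58, adjusted p = 0.00676). Cebpb was lower in females among hCYP2B6-Tg livers too (-0.47, adjusted p = 0.0214). That call was lost without hCYP2B6-Tg female 1 or 4 or hCYP2B6-Tg male 2 or 3 (up to 0.0722). Of 16 genes of cholesterol efflux and ABCA1 turnover, 1 was higher and 2 lower in females among hCYP2B6-Tg livers. The 2 lower genes were Osbpl1a, an oxysterol-binding protein of late endosomes (-0.45, adjusted p = 0.000450), and Abca6 (-0.31, adjusted p = 0.0153, lost without hCYP2B6-Tg female 2 or 5, up to 0.0507). Ttc39b, which promotes the breakdown of LXR, was higher (0.44, adjusted p = 0.0497), but over omissions of a single library the call held only without hCYP2B6-Tg female 1, Cyp2b-null female 1 or Cyp2b-null female 3 (otherwise up to 0.160). Among Cyp2b-null livers 1 passed, Abca7, which was lower in females (-0.88, adjusted p = 0.0119, lost without Cyp2b-null female 5 or Cyp2b-null male 2, up to 0.0577).

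Within groups, the members did not vary as a block. After each group's mean log2 CPM was subtracted, Mttp and Abca1 deviated together over the 16 libraries (r = 0.82, rho = 0.82, permutation within groups p = 0.00031 and 0.00055, adjusted over the 36 pairs 0.0112 and 0.0198), and r was 0.81 without the 2 libraries farthest out for Mttp. These genes lie on different chromosomes. None of the other pairs passed after adjustment: Sar1b and Lrp1 had r = -0.75 (rho = -0.67, permutation p = 0.00682, adjusted p = 0.121), Lcat and Scarb1 r = 0.70 (rho = 0.58, permutation p = 0.0120, adjusted 0.121) and Lcat and Lrp1 r = 0.66 (rho = 0.72, permutation p = 0.0135, adjusted 0.121). The labels give no batch, so no value within batches could be given.

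**Figure D5:**
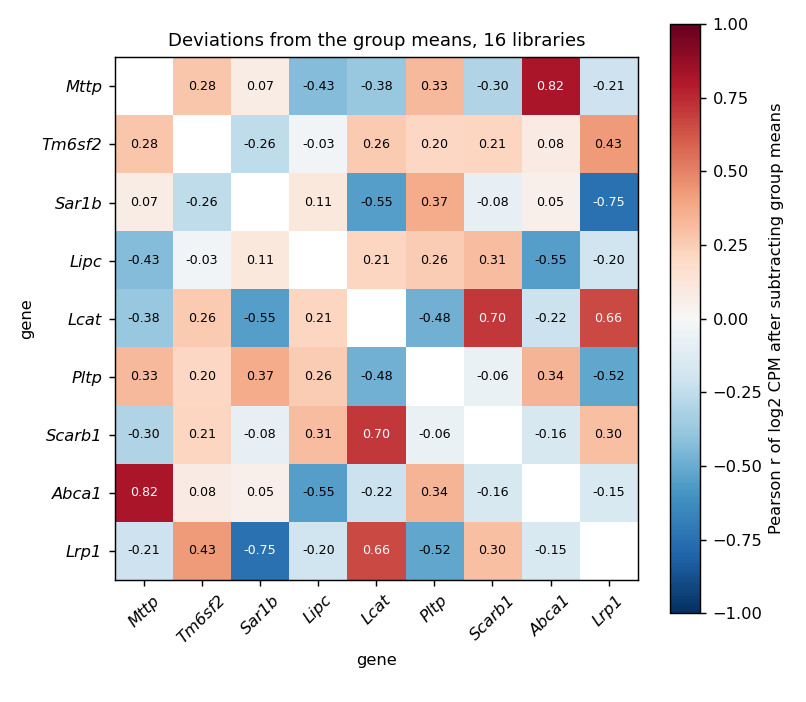
Pearson r between each pair of the 9 genes over 16 libraries, from log2 CPM with each group's mean subtracted. The highest r is 0.82, for Mttp and Abca1, and the lowest is -0.75, for Sar1b and Lrp1.

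The tested genes most like each member by this measure over the 16 libraries, as a description with no test, were as follows. For Mttp they were Itga1 (r = 0.89) and Tubb4b (0.86), for Tm6sf2 Napb (0.86) and Secisbp2 (0.85), and for Sar1b Tmem14a (0.85) and Txnl4a (0.83). For Lipc they were Serpinc1 (0.90) and Stk11 (0.86), for Lcat C3 (0.92) and Klhdc3 (0.89), and for Pltp Ugt1a5 (0.87) and Amz2 (0.86). For Scarb1 they were Hnrnpa0 (0.86) and Klhdc3 (0.85), for Abca1 Pon2 (0.91) and Gpd2 (0.91), and for Lrp1 Epb41 (0.90) and Tln1 (0.84). Each is the top of 13470 genes, so high values occur for any gene. With group means kept, some pairs stayed as alike, such as C3 with Lcat (r = 0.96) and Serpinc1 with Lipc (0.92), and others did not, such as Itga1 with Mttp (0.087) and Klhdc3 with Lcat (-0.53).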

How the data were processed

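Read counts per gene were deposited by the authors as 1 table of raw whole-number counts for 16 liver libraries. FastQC, Trimmomatic, GSNAP, Subread and edgeR are listed in the submitters' processing notes, with build GRCm38.p6; no source used here states the strand setting or the treatment of multiply mapped reads. Rows with a date in place of a symbol (27) and a repeated name (2) held no member. Genes were filtered with filterByExpr and scaled by TMM, and all 16 libraries were fitted in 4 groups with edgeR 4.0.16 (R 4.3.3; glmQLFit, robust; two-sided F test; Benjamini-Hochberg over 13470 genes; threshold 0.05). Correlations used log2 CPM (prior count 2) and 100000 permutations within groups. The steps were tested on simulated data. Gene positions and promoters are from RefSeq, and exons, transcript lengths and overlaps from GENCODE, both on GRCm38. All 9 members are named, with up to 3 genes of smallest p per list and contrast, and the 2 genes closest to each member. A few other genes are also named. Members and lists were chosen with earlier results of these data known. Alternatives were other scalings, filters, tests (DESeq2 1.42.0, limma 3.58.1 voom) and sets of libraries.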

Additional observations from a re-analysis of the deposited data

Results flagged for a closer look

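Lcat had 386 CPM in hCYP2B6-Tg female 1, below 447 to 457 CPM in the other 3 libraries of that group. The gap to its nearest neighbour was 0.859 of the group's range, above Dixon's 95% critical value for 4 libraries. It was the 1 such library among 36 sets of a member and a group, and chance alone flags about 1 set in 20.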

How the results depend on the processing

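Over 11 alternative settings and 16 omissions of a single library, 1410 of 1440 member values kept their call, 20 lost it, 10 gained it and 0 turned while called. A further 46 changed sign while past the threshold in neither fit. Mttp, Tm6sf2, Sar1b, Lipc and Lcat among hCYP2B6-Tg livers, and Tm6sf2 among Cyp2b-null livers, passed in all of them. Scarb1 among hCYP2B6-Tg livers also lost its call with no filter (adjusted p = 0.0592). Lcat among Cyp2b-null livers also passed with library totals, with no filter, with DESeq2 and without ribosomal RNA (0.0364 to 0.0481). Without Cyp2b-null females 1 and 3 and hCYP2B6-Tg male 4, which stood apart in earlier results, Scarb1 (0.0607), Lrp1 (0.0809) and, among Cyp2b-null livers, Lipc (0.0814) lost theirs. Of 46 pathway calls, 25 held in all settings, run after the data were seen.

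Members past the threshold among Cyp2b-null livers numbered 2, and 1 without the 3 libraries (1 to 3 over single omissions). Counts over all genes for genotype moved more. In females, 0 became 2 with no filter and 12 with DESeq2 (0 to 1 over omissions). In males, 15 became 47 with DESeq2, 6 with voom, 26 with only the groups compared and 28 without the 3 libraries (2 to 24 over omissions, with 2 without Cyp2b-null male 4, hCYP2B6-Tg male 4 or hCYP2B6-Tg male 5). Averaged, 2 became 6 with no filter, 31 with DESeq2, and 0 with voom or without the 3 libraries (0 to 4). For the difference, 6 became 0 with library totals, 16 with DESeq2 and 3 with voom (0 to 12). The cause was not tested. The median log2 fold change of all genes was at most 0.055 in size under each scaling.

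Within each sex, same-numbered libraries of the genotypes did not deviate together (r -0.062 to 0.075, against -0.128 to 0.148 for differently numbered ones). This gave no sign that the numbers pair libraries, but so few pairs cannot exclude it, and the sexes were not compared. With the replicate block, genotype counts were 2 in females, 5 in males and 0 averaged, Scarb1 (0.0578) and Lrp1 (0.100) lost their call among hCYP2B6-Tg livers, and Lcat gained one among Cyp2b-null livers (0.0486).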
